A study of Mus musculus with 4 samples.

Results

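Creatine kinases and the genes that supply their substrate were followed through differentiation of cultured mouse muscle stem cells. The 7 genes were taken by name from the 32285 gene identifiers of the deposited count matrices: the cytosolic creatine kinases Ckm and Ckb, the mitochondrial creatine kinases Ckmt1 and Ckmt2, the creatine transporter Slc6a8, and the synthesis enzymes Gatm and Gamt. The mice carried the genotype MyoD-KI, and their muscle stem cells spent 5 days in a growth medium with fetal bovine serum. Cells labelled MyoD-tdTomato high, named for the red fluorescent protein tdTomato, were then taken by flow sorting, and RNA was counted cell by cell in droplets. All 4 samples carry the same genotype, culture time and sort, so there is no untreated or second group. The MyoD-tdTomato low cells named in the protocol were not analysed here.

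Creatine kinases move phosphate between ATP and creatine, so that phosphocreatine buffers ATP where it is consumed. Ckm is the muscle form and binds the M-band of the sarcomere, Ckb is the form known from brain and from immature muscle, and Ckmt1 and Ckmt2 work at the mitochondrial inner membrane, Ckmt2 being the sarcomeric form. Gatm makes guanidinoacetate from arginine and glycine, Gamt methylates it to creatine, and Slc6a8 imports creatine from outside the cell. In maturing muscle, creatine kinase is known to pass from Ckb to Ckm.

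Each pair of the 4 matrices shared 99.88% to 99.95% of the barcodes of its smaller member, so the matrices count as repeat libraries made from the same cells, called replicates 1 to 4. Every comparison is therefore made among cells of 1 sample. There is no replicate check and no p-value, and ranges over replicates and 95% intervals cover library and counting error only. Of 5985 barcodes, 5481 were kept: they lay in all 4 matrices, averaged 1000 genes or more, and had less than 10% of UMIs from mitochondrial genes. A UMI is a tag that counts 1 captured RNA molecule, and each matrix held 62627341 to 68898900 of them, with a median of 11049 per kept cell. The cells carried muscle markers: 8 of 8 myocyte markers lay between 184 and 2898 CPM (a gene's UMIs scaled to a common library total), and 6 of 6 stem or progenitor markers between 17.0 and 79.5 CPM. All 3 endothelial and all 3 immune markers were under 1 CPM, as were 3 of 5 fibroblast markers (Pdgfra, Dcn and Lum), 2 of 3 glial and 2 of 3 adipocyte markers. Col3a1, a collagen also listed as a fibroblast marker, stood at 110 CPM and Ly6a at 29.6 CPM. Of 4 smooth muscle or pericyte markers 1 was under 1 CPM, and Notch3, Cspg4 and Rgs5 stood at 50.3, 12.3 and 5.25 CPM.

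Over all kept cells Ckb was the most abundant member, followed by Gatm, Gamt, Ckm and Slc6a8, with both mitochondrial kinases near the floor. Ckb, at chr12:111669361-111672338 on GRCm38, had 166.9, 162.0, 164.9 and 169.2 CPM in replicates 1 to 4. Ckm, at chr7:19404776-19422841, had 44.5, 45.0, 44.5 and 44.2 CPM. The values of the 4 replicates lay close together, and those of the 2 genes did not overlap. Gatm (chr2:122594467-122611303) averaged 131.6 CPM, with an interval of 128.8 to 134.4. Gamt (chr10:80258151-80261012) averaged 91.9 CPM (89.5 to 94.2), and Slc6a8 (chrX:73673150-73682502) averaged 33.0 CPM (31.6 to 34.4). The intervals of neighbours in this order did not overlap. Ckmt2 (chr13:91853387-91876885) averaged 1.61 CPM (1.32 to 1.95) and Ckmt1 (chr2:121357714-121363737) averaged 0.245 CPM. Because the libraries read transcript ends, 1 molecule gives 1 UMI whatever its length, and CPM values were not divided by length. Whether intronic reads were counted is not given in the sources used here, and Ckm spans 18066 bases against 2978 for Ckb.

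Differentiation was read from each cell's summed CPM of Acta1, skeletal muscle actin, and Myh3, embryonic myosin heavy chain. Ckb and Ckm both rose along these bins, and neither replaced the other. In the 1970 cells under 100 CPM of Acta1+Myh3, Ckb stood at 51.2, 52.4, 52.1 and 52.7 CPM in replicates 1 to 4, and in the 476 cells with at least 10000 CPM at 570.9, 547.0, 562.9 and 563.5 CPM. Ckm in the same cells went from 1.48, 1.64, 1.46 and 1.34 CPM to 247.7, 253.7, 256.0 and 247.9 CPM. For both genes every replicate of the highest bin was above every replicate of the lowest. On the log2(CPM + 1) scale, which understates changes of low genes, the difference was 6.67 for Ckm (interval 6.35 to 6.97) and 3.40 for Ckb (3.31 to 3.50). On that scale the folds were 102 and 10.6.

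Across the 6 bins, with edges at 100, 300, 1000, 3000 and 10000 CPM, mean Ckb ran through 52.1, 60.8, 128.1, 168.0, 313.6 and 561.0 CPM. Each step of Ckb had an interval above 0, from the first at 0.22 (0.09 to 0.35). Mean Ckm ran through 1.48, 1.76, 6.40, 26.5, 95.1 and 251.3 CPM. Its first step, of 0.15, had an interval that included 0 (-0.35 to 0.65), and the later 4 steps lay between 1.39 and 1.90. Over all kept cells, Ckb thus differed from its lowest level in the bin from 100 to 300 CPM of Acta1+Myh3. A difference of Ckm was not detectable there at this depth. The Ckb step lay in cycling cells, called from S and G2/M gene scores, at 42.0 CPM in the lowest bin and 52.6 CPM in the next. In non-cycling cells Ckb stood at 79.4 and 81.0 CPM. In the lowest bin, 34.3 Ckm UMIs per library were counted over all cells, and after thinning to 5000 UMIs a Ckm UMI was found in 0.709% of its cells.

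Of the 6 members with at least 50 UMIs per library over both bins, 5 were higher by at least 2-fold in the highest Acta1+Myh3 bin, and none was lower. Among all 11874 genes tested the same way, 8.4% were higher and 31.1% lower by that much. The median log2 difference was 2.94 over the 6 members and -0.55 over all genes tested. That median of all genes moved to -0.15 with TMM scaling, which sets libraries to a common reference by trimmed means, and the TMM differences of the members were larger, at 3.83 for Ckb, 3.52 for Gatm and 1.68 for Gamt. Median-ratio scaling moved the genes higher and lower by 2-fold in this contrast from 998 and 3690 to 1498 and 2408.

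**Figure D1:**
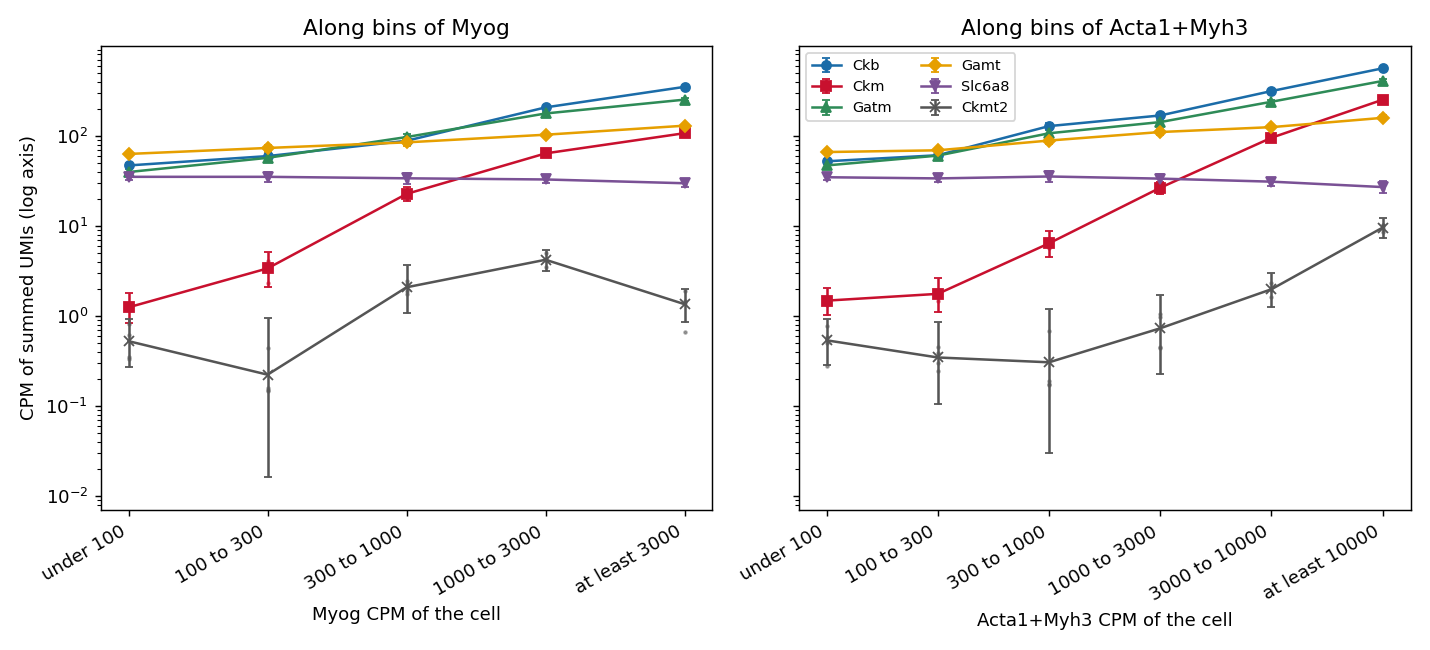
Mean CPM of 6 members over bins of each cell's Myog CPM (left) and Acta1+Myh3 CPM (right), on a log axis. Lines join means of 4 replicate libraries, dots are single replicates and bars are exact 95% Poisson intervals. Ckm climbs from 1.48 to 251.3 CPM along Acta1+Myh3 and stays below Ckb in every bin, while Slc6a8 stays between 27.0 and 35.3 CPM.

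The share of Ckm among Ckm and Ckb UMIs grew along the same bins but stayed under 50%. It was 2.76% in the lowest bin (interval 1.93 to 3.84) and 2.81%, 4.77%, 13.6% and 23.3% in the bins that followed. In the highest bin the replicates gave 30.3%, 31.7%, 31.3% and 30.6%, with an interval of 29.7 to 32.2. Ckb therefore remained the larger of the 2 pools in the most differentiated cells of the culture, and the levels show a rise of both genes, steeper for Ckm, and no switch from Ckb to Ckm. The highest bin was also split at 15000 and 20000 CPM, a split chosen after seeing the data. Ckb was at 455.2 CPM in 269 cells, 700.9 CPM in 125 cells and 703.2 CPM in 82 cells, and its last step was 0.01 (-0.13 to 0.14). Ckm went from 260.4 to 356.0 CPM at that step, a log2 difference of 0.45 (0.25 to 0.65). The Ckm share over the 3 groups was 32.1%, 27.1% and 33.6%, without a steady direction. The intervals cover counting error only. Single cells of the highest bin had 76.4 to 1270 CPM of Ckb between the tenth and ninetieth percentiles. An end of the Ckb rise can therefore not be placed from these groups.

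**Figure D2:**
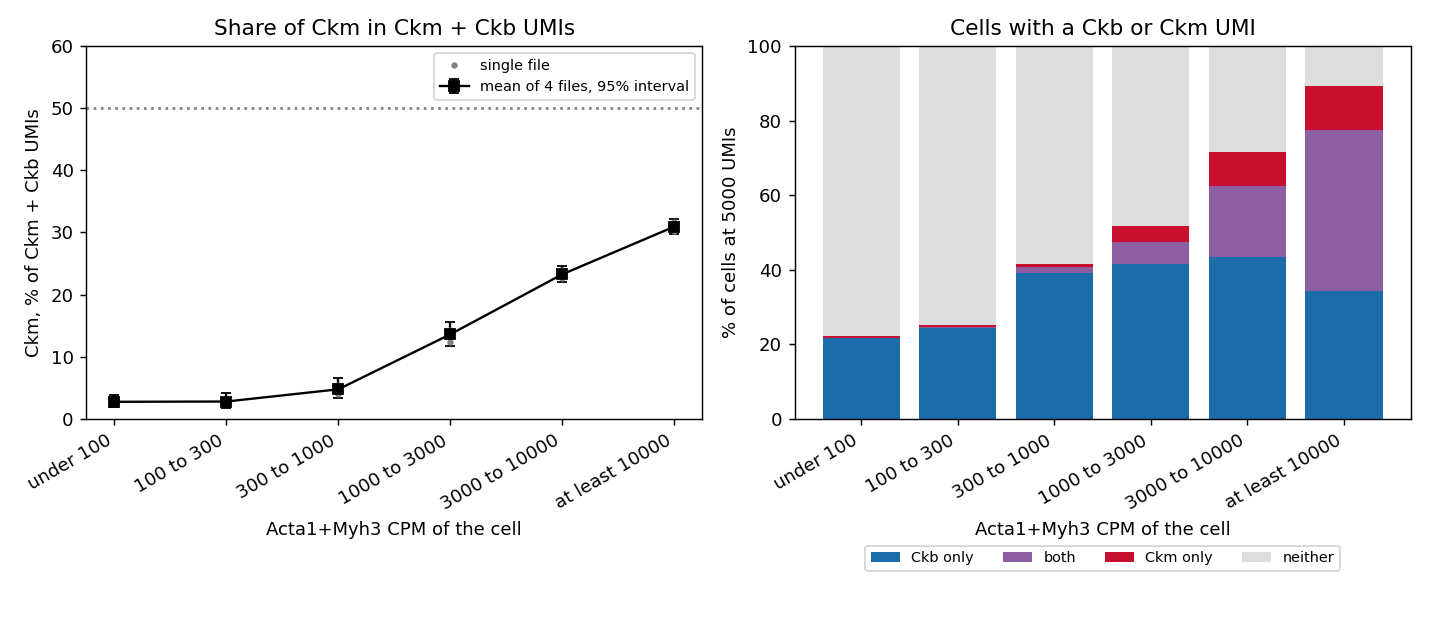
Left, Ckm as a percentage of Ckm and Ckb UMIs in 6 bins of Acta1+Myh3 CPM, with means of 4 libraries, single libraries as dots and exact 95% binomial intervals; the dotted line is at 50%. Right, percentage of cells with a Ckb UMI, a Ckm UMI, both or neither after thinning to 5000 UMIs per cell; cells with both make up 43.1% of the highest bin and 0.150% of the lowest.

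Bins of Myog, the transcription factor that marks commitment to differentiation, gave the same directions with smaller differences. Between 1875 cells under 100 CPM of Myog and 1562 cells with at least 3000 CPM, Ckm went from 1.32, 1.18, 1.3 and 1.2 CPM in replicates 1 to 4 to 108.5, 107.5, 105.8 and 105.8 CPM. Ckb went from 45.7, 48.2, 46.0 and 47.5 CPM to 354.5, 336.9, 346.5 and 359.1 CPM. No replicate of the high bin reached down to the low bin for either gene, and the log2 differences were 5.59 (5.26 to 5.89) for Ckm and 2.87 (2.78 to 2.97) for Ckb. The Ckm share was 2.60% and 5.36% in the lowest 2 bins, 20.5% at 300 to 1000 CPM of Myog, and 23.6% and 23.4% in the last 2. The middle value rests on few cells: 10 of its 460 cells held 74.3% of the bin's Ckm UMIs. It was 30.5% in non-cycling and 9.85% in cycling cells of that bin, and 2.26% in those of its cells with under 100 CPM of Acta1+Myh3. Of the 5 members with enough UMIs, 4 were higher by at least 2-fold and none lower, against 8.5% of 12287 genes higher and 23.7% lower by that much. The fourth of them, Gamt, stood close to the threshold at 1.03 (0.93 to 1.13), and its call ended in 4 alternatives: 0.98 without replicate 3, 0.97 without the 5% of cells with the most UMIs, 0.80 as a mean of per-cell CPM, and 0.46 in non-cycling cells only. TMM scaling moved the genes higher and lower by 2-fold in this contrast from 1045 and 2918 to 1416 and 2086.

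Each of Myog and the sarcomere genes was then followed among cells limited by the other. Among cells with at least 1000 CPM of Myog, mean Ckm along the 6 Acta1+Myh3 bins was 3.37, 3.19, 6.88, 27.6, 93.8 and 245.6 CPM, and Ckb went from 90.7 to 565.5 CPM. The levels of Ckm in cells with much Myog and little Acta1 and Myh3 thus stayed low: 161 cells with under 100 CPM of Acta1+Myh3 had an interval of 1.17 to 7.62 CPM. Along these 6 bins Myog itself went from 2119 CPM in the lowest to 4230 and 4014 CPM in the last 2. The share of cycling cells went from 52.2% in the lowest to 2.37% in the highest. The parts of Myog and of cycling in the Ckm and Ckb rises were not tested. The converse comparison took the cells under 100 CPM of Acta1+Myh3 and followed them along Myog. There Ckb went from 45.8 CPM through 51.9, 70.1 and 78.8 to 153.6 CPM, the last in 31 cells only, and Ckm was at 1.28, 1.42, 1.59 and 4.01 CPM in the first 4 bins, with overlapping intervals and 5.50 UMIs per library behind the last of these. The 31 cells had no Ckm UMI, which allows up to 14.2 CPM. Gatm, in the same cells, went from 37.7 to 88.9 CPM at 1000 to 3000 CPM of Myog, with intervals that did not overlap (34.7 to 40.9 and 73.9 to 106.4). The share of cycling cells fell from 67.8% to 56.9% between those 2 Myog bins, and was 32.3% in the 31 cells. Under 100 CPM of Acta1+Myh3, Ckb stood at 42.0 CPM in cycling and 79.4 CPM in non-cycling cells. The part of cycling in the Ckb and Gatm differences was not tested.

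Of the mitochondrial kinases, Ckmt2 was higher in the most differentiated cells, and Ckmt1 had too few UMIs for a call. Along the Acta1+Myh3 bins Ckmt2 averaged 0.536, 0.346, 0.306, 0.729, 1.98 and 9.58 CPM. In the highest bin the replicates gave 10.2, 9.50, 8.49 and 10.1 CPM, all above the 0.507, 0.587, 0.775 and 0.277 CPM of the lowest, a log2 difference of 2.79 (2.32 to 3.15). Of the 426 Ckmt2 UMIs summed over the replicates, 20 cells held 45.3%, and 18 of those 20 cells had at least 3000 CPM of Acta1+Myh3. Without these cells, an alternative chosen after seeing the data that lowers the gene by construction, the log2 difference was 2.01. Along Myog, Ckmt2 did not follow the other members: it averaged 0.525, 0.223, 2.08, 4.21 and 1.35 CPM, highest at 1000 to 3000 CPM of Myog, and the step down to the highest bin was -1.17 (-1.60 to -0.67). Without the same 20 cells that step was -0.27, with an interval that included 0 (-0.78 to 0.29). Inside the highest Acta1+Myh3 bin, 154 cells under 3000 CPM of Myog had 20.8, 24.0, 18.6 and 23.2 CPM of Ckmt2, and 322 cells above it had 4.12, 1.20, 2.72 and 2.65 CPM. The 2 sets of replicates did not overlap, and the log2 difference of the high-Myog cells from the others was -2.68 (-3.39 to -1.83). Of the 20 cells, 14 lay in the low-Myog side, and without them the difference was -1.41 (-2.27 to -0.39), by construction smaller. Over the same split, Ckm differed by -0.22 (-0.37 to -0.07), and the interval of Ckb, at 0.10, included 0. This split was also chosen after seeing the data.

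Ckmt1 had 64 UMIs over the 4 replicates, in 43 cells, under the minimum of 50 per library for a call. It averaged 0.442 CPM in the lowest Myog bin and 0.0141 CPM in the highest, a log2 difference of -0.50 (-0.54 to -0.11). Between the outer Acta1+Myh3 bins the difference was -0.29, with an interval that included 0 (-0.54 to 0.43). In the highest Acta1+Myh3 bin its replicates gave 0.154, 0.153, 0.157 and 0.169 CPM, below the 0.475 CPM that 3 counts are worth there. Transcripts of Ckmt1 and Ckmt2 share 15 sequences of 25 bases, which may overlap one another, and no other pair of members shares one. How reads from the shared bases were assigned was not examined.

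The creatine supply genes fell into 3 behaviours. Gatm, the first enzyme of synthesis, followed Ckb: along the Acta1+Myh3 bins it averaged 46.9, 60.2, 106.6, 141.9, 238.6 and 406.1 CPM. Its replicates stood at 48.7, 46.1, 45.9 and 46.7 CPM in the lowest bin and at 404.0, 415.3, 394.2 and 411.0 CPM in the highest, without overlap. The log2 difference was 3.09 (2.99 to 3.19), and 2.64 (2.54 to 2.74) between the outer Myog bins. Each of the 5 steps along Acta1+Myh3 had an interval above 0.

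Gamt, the second enzyme, started higher and rose less. Its replicates stood at 67.0, 67.1, 63.1 and 66.8 CPM in the lowest Acta1+Myh3 bin and at 155.2, 155.4, 158.0 and 164.1 CPM in the highest, again without overlap. The log2 difference of 1.25 (1.13 to 1.36) passed 2-fold over all kept cells, and in non-cycling cells alone it was 0.63. The ratio of Gatm to Gamt therefore changed along the bins, from 46.9 against 66.0 CPM in the lowest to 406.1 against 158.2 CPM in the highest. Inside the highest bin Gamt did not climb further, at 156.7, 159.6 and 161.2 CPM over the 3 groups split at 15000 and 20000 CPM.

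Slc6a8, the importer, did not pass 2-fold in any contrast. Its replicates were at 34.4, 33.8, 35.5 and 34.97 CPM in the lowest Acta1+Myh3 bin and at 26.9, 26.5, 25.9 and 28.5 CPM in the highest. All 4 values of the highest bin were below all 4 of the lowest, and the log2 difference was -0.35 (-0.59 to -0.12) on the CPM scale. It changed sign with scaling, to 0.07 with TMM and 0.10 with median-ratio factors, as did the difference between the outer Myog bins, from -0.23 to 0.10 and 0.14. None of its steps between neighbouring bins, along Acta1+Myh3 or Myog, had an interval that left out 0.

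Ckm, Ckb and Gatm had the 3 largest log2 differences among the members along Acta1+Myh3, and the 250 bases before their start sites are printed to show what sequence lies there. Sequences and start sites are from RefSeq on GRCm38.p6, written along the gene's own strand, and 6 of the 7 members had an entry there. Capitals mark matches, on either strand, to the E-box letters CANNTG, to CCAAT and to TATANA. The windows are chr7:19410844-19411093 on the plus strand for Ckm, chr12:111672339-111672588 on the minus strand for Ckb, and chr2:122611278-122611527 on the minus strand for Gatm. The Ckm window lies inside the gene span given above, which starts at chr7:19404776, and the Gatm window overlaps the end of its span. Distances from the start therefore depend on the start site used.
Ckm: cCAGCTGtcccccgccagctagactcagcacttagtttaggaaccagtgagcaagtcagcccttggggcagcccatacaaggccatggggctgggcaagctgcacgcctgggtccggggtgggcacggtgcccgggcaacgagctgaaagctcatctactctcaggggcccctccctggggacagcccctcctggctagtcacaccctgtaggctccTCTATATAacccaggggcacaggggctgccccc
Ckb: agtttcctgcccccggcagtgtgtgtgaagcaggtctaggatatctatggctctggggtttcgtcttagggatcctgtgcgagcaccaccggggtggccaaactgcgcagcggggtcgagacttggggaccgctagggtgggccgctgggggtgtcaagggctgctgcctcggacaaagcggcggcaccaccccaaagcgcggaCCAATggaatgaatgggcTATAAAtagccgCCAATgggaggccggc
Gatm: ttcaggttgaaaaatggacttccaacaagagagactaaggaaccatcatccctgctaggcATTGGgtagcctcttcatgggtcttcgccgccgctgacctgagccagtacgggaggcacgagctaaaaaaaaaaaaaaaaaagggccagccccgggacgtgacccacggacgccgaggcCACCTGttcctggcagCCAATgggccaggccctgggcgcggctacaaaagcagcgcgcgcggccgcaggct
The E-box is the form of site that MyoD and Myog bind. Ckm had 1 match, CAGCTG, which began 249 bases before the start, and Gatm had 1, CACCTG, which began 71 bases before it. Ckb had no E-box match in these letters, and 2 matches of CCAAT, which Gatm also had and Ckm lacked. Ckmt2, whose window is not printed, had 4 E-box matches, and Gamt and Ckmt1 had none. TATANA was matched in Ckm by overlapping letters and once in Ckb, and not in Gatm. These motifs are common in such windows: over 32851 RefSeq windows of the same length, 66.2% held CANNTG, 33.8% held CCAAT and 22.6% held TATANA. The CArG box, the site of serum response factor, was found in 1.47% of all windows and in none of the members' windows. A match is a description of letters and was not tied to the levels.

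Ckb and Ckm were also asked for in the same cells, after each cell was thinned to 5000 UMIs so that depth was equal. Of 5197 cells at that depth, 30.5% had a Ckb UMI only, 3.43% a Ckm UMI only, 7.87% both and 58.2% neither. Without thinning, cells with both made up 15.2%. In the highest Acta1+Myh3 bin, 466 cells, both were found in 43.1% (38.6 to 47.8), Ckb only in 34.3% and Ckm only in 11.96%. In the lowest bin the corresponding shares were 0.150%, 21.7% and 0.559%. A Ckm UMI was found in 55.1% of the highest bin and 0.709% of the lowest, where the median depths before thinning were 12450 and 11261 UMIs, and without thinning in 74.6% and 1.73%. Most cells with a Ckm UMI in the highest bin also had a Ckb UMI, as did 77.4% of all cells of that bin.

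Detection of 1 kinase did not go with absence of the other. Over all cells, a Ckm UMI was found in 20.5% of cells with Ckb and 5.56% of cells without it, a difference of 15.0 points (13.02 to 17.0). Within each of the 6 Acta1+Myh3 bins, the interval of that difference included 0. In the highest bin, Ckm was found in 55.7% of cells with Ckb and 53.0% of cells without, 2.75 points apart (-8.39 to 14.0). Across 5481 cells the Pearson correlation of Ckm and Ckb, on ln of 1 + UMIs per 10000, was 0.50, and within the highest bin it was 0.14. Cells of a bin share libraries and depth, so these are descriptions.

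Single cells of the highest bin spread widely in both kinases. Over 476 cells Ckm had a median of 163 CPM, with 0 at the tenth percentile and 595 CPM at the ninetieth, and 54 cells had no Ckm UMI in any replicate. Ckb had a median of 400 CPM, from 76.4 to 1270 CPM between the same percentiles, and 14 cells had none. Gatm was narrower, with a median of 385 CPM and 187 to 651 CPM. The spread of both kinases came back in each library of the same cells. The correlation between 2 replicates across these cells was 0.73 to 0.77 for Ckm and 0.82 to 0.84 for Ckb. For Gatm it was 0.39 to 0.49 and for Slc6a8 0.14 to 0.23. Libraries of the same cells are no independent repeat. Such correlations also fall where a gene has few UMIs per cell, as Slc6a8 did at 27.0 CPM in this bin. Among 349 cells with at least 20 Ckm and Ckb UMIs summed over the replicates, Ckm took a median of 28.6% of them, from 3.70% to 70.8% between the tenth and ninetieth percentiles. Ckm took over 50% in 84 of these cells (24.1%). In the bin from 3000 to 10000 CPM the same was true of 41 of 341 cells (12.02%).

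**Figure D3:**
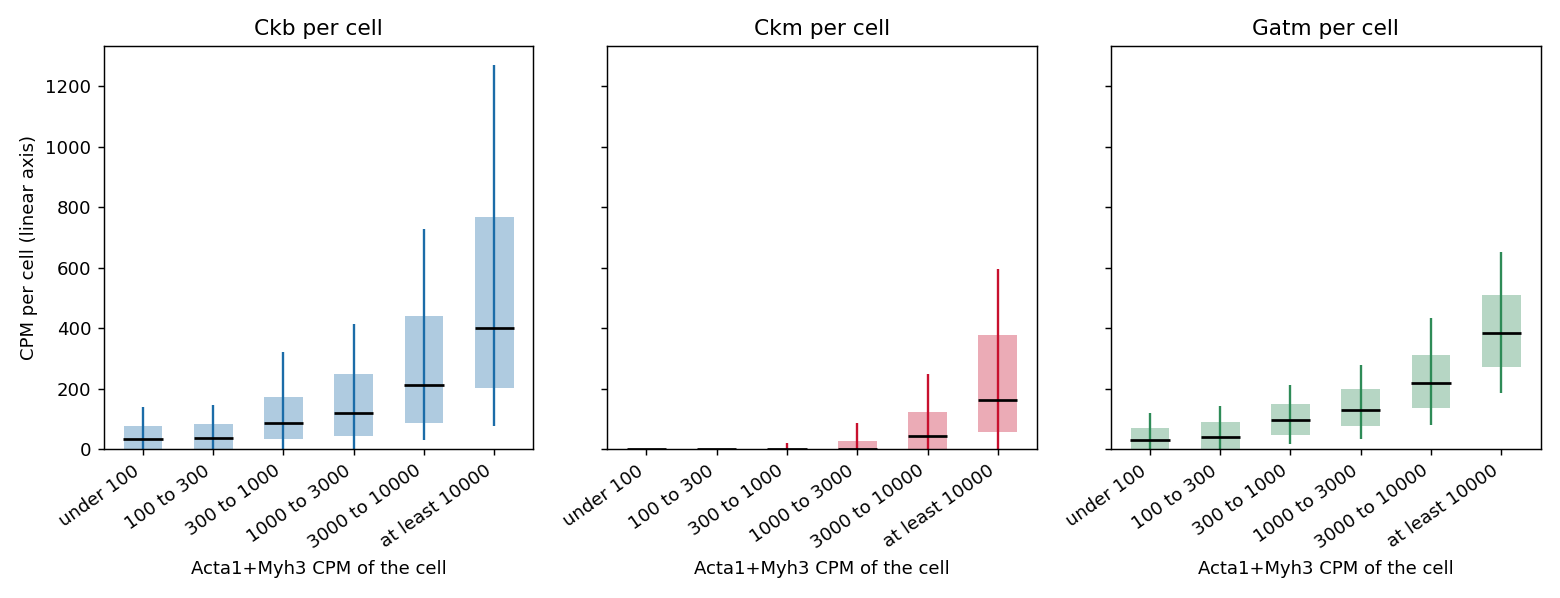
CPM per cell of Ckb, Ckm and Gatm in 6 bins of Acta1+Myh3 CPM, on a linear axis. Black marks are medians, boxes span the 25th to 75th and lines the 10th to 90th percentile of cells. In the highest bin Ckb reaches from 76.4 to 1270 CPM and Ckm from 0 to 595 CPM between the outer percentiles.

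Cycling cells, called from S and G2/M gene scores, had less Ckm, Ckb, Ckmt2, Gatm and Gamt RNA than other cells. Ckm stood at 8.64, 7.72, 8.22 and 7.91 CPM in replicates 1 to 4 of 2470 cycling cells and at 80.6, 82.7, 81.2 and 80.9 CPM in 3011 non-cycling cells. Ckb stood at 68.9, 68.1, 70.3 and 73.9 CPM against 265.8, 256.9, 260.5 and 265.5 CPM. The replicates of cycling cells were lower throughout for both genes, by log2 differences of -3.17 (-3.34 to -3.01) and -1.88 (-1.95 to -1.82). Gatm differed by -1.48 (-1.55 to -1.41), Ckmt2 by -1.36 (-1.63 to -1.01) and Gamt by -1.04 (-1.12 to -0.96), while Slc6a8 was at 0.09 (-0.03 to 0.20), and at -0.02 with TMM. So 5 of 6 members tested were lower by at least 2-fold and none higher, against 5.38% of 13133 genes lower and 8.46% higher by that much. With cycling read instead from any Mki67 or Top2a UMI, Ckm differed by -1.83 and Gamt by -0.83, which ended the Gamt call. The Ckmt2 call ended without its 20 highest cells, at -0.82. Ckmt1, with too few UMIs for a call, was at 0.05 (-0.25 to 0.33).

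Myog differs between cycling and non-cycling cells, at 721 against 2896 CPM, so the contrast was repeated within Myog bins. Acta1 still differed inside them, at 4596 CPM in non-cycling and 1380 CPM in cycling cells at 1000 to 3000 CPM of Myog. Ckb stayed lower in cycling cells of every bin, by -0.93, -0.82, -0.56, -0.96 and -1.05 from the lowest bin to the highest, each with an interval below 0. Gamt did likewise, at -0.96, -1.02, -0.79, -0.67 and -0.74. In the lowest bin Gamt stood at 50.4 CPM in cycling and 98.9 CPM in non-cycling cells, and Ckb at 37.8 and 73.0 CPM, so both genes differed by cycling among cells with little Myog. Gatm did not share this: in the lowest bin it stood at 39.6 and 39.5 CPM, a difference of 0.01 (-0.21 to 0.22). Its difference was -0.29, -0.42, -0.86 and -0.74 in the bins that followed, with intervals below 0 from 300 CPM of Myog on.

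For Ckm the difference was 0.03 (-0.74 to 0.71) in the lowest Myog bin, and -1.68, -2.44, -1.92 and -1.95 in the other 4, all with intervals below 0. The -1.68 rests on 7.75 Ckm UMIs per library in cycling and 14.75 in non-cycling cells. In the bins of the -1.68 and the -2.44, 10 cells held 58.9% and 74.3% of the Ckm UMIs. The intervals do not cover such spread between cells. Slc6a8 had intervals that included 0 in all 5 bins. Within the lowest Myog bin, S-phase and G2/M cells lay on the same side of the rest: Gamt was at 52.2 and 49.6 CPM against 98.9 CPM in the non-cycling cells, and Ckb at 43.1 and 35.5 against 73.0 CPM. Cycling cells of that bin had a median of 12444 UMIs and non-cycling cells 8835, and Malat1, a nuclear transcript, stood at 6216 and 12622 CPM. The part of depth in these differences was not tested. Without cells under 1000 CPM of Malat1 they were -0.94 for Ckb and -1.002 for Gamt. With TMM factors they were -0.78 and -0.81, and with median-ratio factors -0.79 and -0.82.

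Binning by Acta1+Myh3 in place of Myog, a comparison added after seeing the data, left smaller differences for Ckm and Gatm. In the 5 bins with at least 50 cells on each side, Ckm in cycling cells differed by -0.10, -0.46, -0.42, -1.001 and -0.31 from the lowest bin up, and the first 3 intervals included 0. Gatm differed by -0.10, -0.21, -0.17, -0.16 and -0.34, and its first 4 intervals included 0. Ckb was lower in each of the 5, by -0.90, -0.61, -0.66, -0.65 and -0.15, and so was Gamt, by -0.93, -0.88, -0.79, -0.70 and -0.34, all with intervals below 0. The lower Ckb and Gamt of cycling cells was thus present within bins of Acta1+Myh3 and within bins of Myog. Myog and Acta1+Myh3 were not held together. Under 300 CPM of Acta1+Myh3, Myog stood at 552 CPM in non-cycling and 305 CPM in cycling cells.

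**Figure D4:**
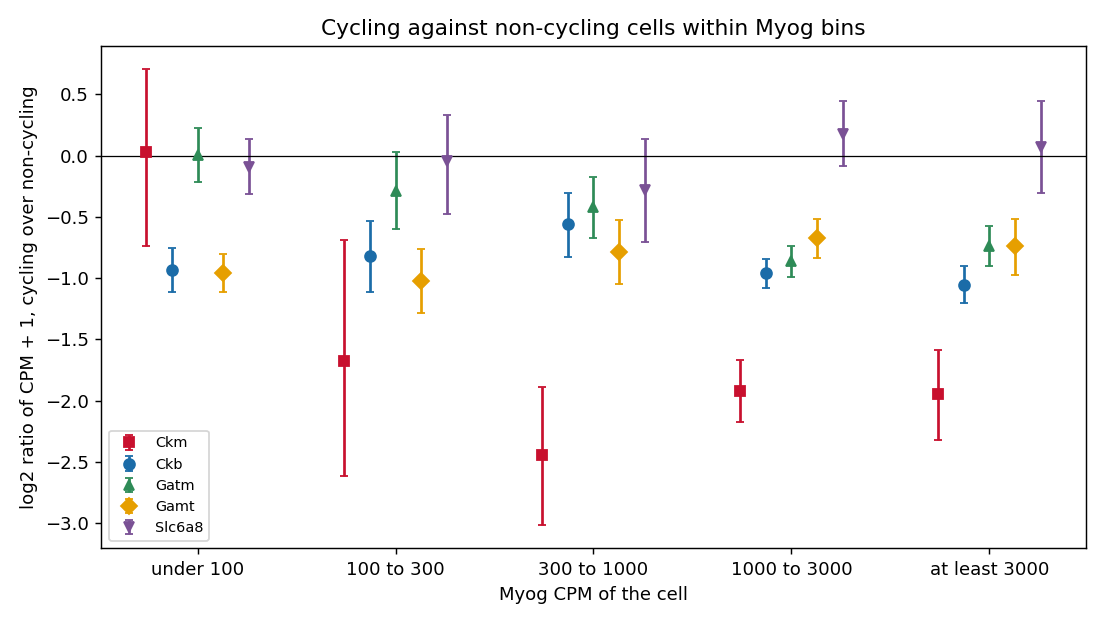
Log2 ratio of CPM + 1 of cycling over non-cycling cells within 5 bins of Myog CPM, with exact conditional binomial 95% intervals over counting error. Ckb and Gamt lie below 0 in every bin, Gatm is at 0.01 in the lowest bin and -0.74 in the highest, and every Slc6a8 interval crosses 0.

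The genes around the creatine system were counted in the contrast of the outer Acta1+Myh3 bins. The M-band proteins Myom1, Myom2 and Myom3 rose in 3 of 3, by 4.61, 5.94 and 3.1. ATP users of the fibre rose in 5 of 7 tested and none fell, among them the calcium pump Atp2a1 at 3.29 and the adult myosin Myh1 at 7.77. With TMM the calcium pump Atp2a2, at 0.90 on the CPM scale, passed at 1.33. Carriers and pores for ATP, ADP and phosphate in the mitochondrial membranes, 6 tested, gave no change of 2-fold in either direction: Slc25a4, the muscle ADP/ATP carrier, was at 0.23. Their median was 0.14. Slc25a5, another of these carriers, was at -0.35, and at 0.08 with TMM. These lists were chosen with earlier results known, and their medians stand beside -0.55 over all genes.

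Among 8 adenylate kinases and AMP enzymes tested, Ampd1, the muscle AMP deaminase, rose by 3.01, and Ak6, Ampd2 and Ampd3 fell, at -1.02, -2.33 and -1.71, Ak6 only on the CPM scale (-0.59 with TMM). Ak1, the main muscle adenylate kinase, was at 0.61 and passed with TMM at 1.04. Of 7 subunits of the AMP-activated kinase, Prkaa2 and Prkag3 rose, by 2.88 and 4.44, and Prkag1 and Prkag2 fell, at -1.54 and -1.58. Of 9 genes that supply arginine, glycine or methyl groups, none rose on the CPM scale and 3 fell: Slc7a2 at -1.59, Shmt1 at -2.23 and Oat at -1.91. With TMM scaling Slc6a9, a glycine transporter, passed 2-fold at 1.26. Slc16a12, a further creatine transporter, was at 0.750 against 5.78 CPM, a difference of -1.96. Of 8 regulators of muscle energy genes, Ppargc1a, Mef2a, Mef2c and Mef2d rose, by 2.97, 1.70, 6.39 and 1.26, and Nrf1 fell, at -1.54. Over all 11874 genes, 8.4% were higher and 31.1% lower in this contrast. The counts of suppliers, 0 higher and 3 lower of 9, and of kinase subunits lower, 2 of 7, stand near these shares. So do those of adenylate kinases and AMP enzymes, 1 higher and 3 lower of 8.

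The same lists were counted in the other contrasts, where 8.5% of all genes were higher and 23.7% lower between the outer Myog bins, and 8.46% higher and 5.38% lower in cycling cells. Between the outer Myog bins, M-band genes rose in 3 of 3 and ATP users in 6 of 7 (Atp2a2, at 0.80, passed with TMM at 1.14), 4 of 8 regulators rose and 1 (Nrf1, at -1.05, but -0.72 with TMM) fell, and none of the 6 mitochondrial exchange genes passed 2-fold. There 2 AMP-activated kinase subunits rose and 3 fell, of which Prkaa1 and Prkag2 no longer passed with TMM, and 3 of 9 suppliers of synthesis fell. In cycling cells the M-band genes fell in 3 of 3 and the ATP users in 5 of 7, and again no mitochondrial exchange gene passed. Prkaa2 and Prkag3 fell there, at -1.39 and -2.07, and Shmt1, which makes glycine from serine, rose by 1.95.

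By likeness across the 5481 cells, with 8812 genes ranked by Pearson correlation, Ckm was nearest to Acta1, Myl1, Mybph, Myl4 and Casq2, at 0.66 to 0.64. Ckb was nearest to Actc1, Myl4, Acta1, Tnni1 and Tnnc1, at 0.63 to 0.62. The lists share Acta1 and Myl4, and otherwise hold a myosin light chain, a myosin-binding protein and a calcium store protein for Ckm and cardiac actin and slow troponins for Ckb. Gatm ranked 39 for Ckm and 43 for Ckb, ahead of the 2 kinases for each other, at 70 and 63. Gamt ranked 528 and 435. Cells share libraries and differ in depth, and these correlations carry no test.

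Free RNA in droplets can place UMIs in cells that do not express a gene, and some counts bear on the low bins. The ratio of Ckb to Ckm UMIs was 35.1 in the lowest Acta1+Myh3 bin and 2.23 in the highest. Ckm per 1000 UMIs of Ttn, an abundant sarcomere transcript, was 2.52 in the lowest bin and 32.9 in the highest. Ckb per 1000 Ttn UMIs was 88.4 and 73.5. The 463 barcodes left out for few genes or many mitochondrial UMIs had 17.0 Ckm, 34.0 Ckb and 7458.5 Ttn UMIs per library. Cells of the lowest bin had 34.25, 1203.25 and 13616.75. The part of free RNA in the Ckm of the low bins was not tested. Markers moved along the same bins: the summed stem and progenitor markers were at 413.7 CPM in the lowest bin and 164.8 in the highest, the fibroblast markers at 206.6 and 25.1, and the share of cycling cells was 65.0% and 2.94%. In non-cycling cells only, the Ckb difference was 2.83 and the Myog-bin difference 2.33. The parts of the other marker lists in the members' differences were not tested.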

How the data were processed

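The authors deposited UMI counts per gene and barcode, unnormalized, from a 10x Genomics 3-prime v3.1 kit, per the labels' protocols. Cell Ranger is named as 7.1.0 per the file headers and as 3.1.0 per the submitters' processing notes, which also name mm10 and GRCm39 without a role. Gene positions are those of GENCODE M21 on GRCm38, in which 32158 of 32285 identifiers (99.6%) and all 7 members were found.

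Kept cells lay in all 4 matrices, which were compared by shared barcodes and treated as 1 sample. Per bin and library, UMIs were summed and divided by the total to give CPM, and 4 libraries were averaged. Intervals are exact 95% Poisson, Clopper-Pearson or conditional binomial intervals at the mean count of 1 library, and cover counting error only. Since UMIs remove amplification copies but the libraries share cells, they are no measure of variation between animals or cultures. A fold was called from a log2 difference of at least 1 on CPM + 1 among genes with at least 50 UMIs per library. No test across samples was possible. Phases came from scanpy 1.11.5 with 43 S and 54 G2/M genes. Shares of cells used 5197 cells thinned to 5000 UMIs, and 284 shallower cells were left out. No doublet caller was used, and an alternative leaves out the 5% of cells with the most UMIs. Scripts (Python 3.11.15, scipy 1.17.1) were tested on simulated data.

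Members, lists and bins were chosen with earlier results of these data known. Named genes are all members, the listed genes of the pathway and the 5 most correlated with Ckm and with Ckb. One result among the listed pathway genes is not reported here.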

Additional observations from a re-analysis of the deposited data

Results flagged for a closer look

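In 3 of 76 member values compared over the 4 libraries, 1 library stood apart from the other 3, and chance alone sets apart about 5% of such groups. Ckm at 1000 to 3000 CPM of Myog was 61.6 CPM in replicate 1 and 64.4 to 64.7 in the others. Gamt in the lowest Acta1+Myh3 bin was 63.1 CPM in replicate 3 and 66.8 to 67.1 in the others. Gamt at 300 to 1000 CPM of Acta1+Myh3 was 83.5 CPM in replicate 1 and 89.5 to 90.7 in the others. All 3 values lay inside the counting interval of 1 library.

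The 463 barcodes that lay in all 4 libraries but were left out for few genes or many mitochondrial UMIs also held members. In CPM without mitochondrial genes, they had 31.5 of Ckm against 46.2 in kept cells, 63.0 of Ckb against 171.9, and 24.5 of Gamt against 95.3. Gatm was at 134.3 against 136.5, and Slc6a8 at 42.6 against 34.2. The left-out barcodes rest on 13.3 to 72.5 UMIs per gene and library, and the intervals of Ckb (43.6 to 88.0) and Gamt (13.2 to 41.7) lay below the kept level. Those of Ckm, Gatm and Slc6a8 included it. These differences were not tested.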

How the results depend on the processing

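Of 166 recomputed main values, 136 stayed within their limits and 30 moved, and none changed sign. Of 269 further values, 225 stayed, 40 moved and 4 reversed, all of them Slc6a8: with TMM factors 0.10 (Myog) and 0.067 (Acta1+Myh3), with median-ratio factors 0.14 and 0.10. Scaling: the TMM log2 differences were 3.21 for Ckb along Myog, 7.01 for Ckm and 3.83 for Ckb along Acta1+Myh3 and -1.996 for Ckb in cycling cells, and median-ratio factors gave 3.25, 7.04, 3.87 and -1.97, with 1498 genes higher and 2408 lower along Acta1+Myh3. A pseudocount of 10 CPM called 610 genes higher and 1116 lower along Myog, 1493 lower along Acta1+Myh3, and 487 higher and 299 lower in cycling cells. Means of per-cell CPM gave 2.77 for Ckb along Myog. A stricter filter on genes and mitochondrial UMIs left 37.9 CPM of Ckm, 153.4 of Ckb and both in 6.71% of cells, and without thinning both were found in 15.2%. Without the 5% of cells with the most UMIs the cycling differences were -3.65 for Ckm and -2.01 for Ckb, and with cycling read from Mki67 or Top2a UMIs -1.83 and -1.33, with 323 genes lower. In 5 equal groups by rank the Acta1+Myh3 differences were 6.20 for Ckm and 3.03 for Ckb, and bins of Actc1+Mylpf gave 3.56 for Ckb. In non-cycling cells, chosen after seeing the data, Ckb gave 2.33 along Myog and 2.83 along Acta1+Myh3. Leaving out 1 library in turn kept Ckm between 6.65 and 6.73 and Ckb between 3.41 and 3.42 along Acta1+Myh3. No paired analysis was possible because the 4 libraries hold the same cells of 1 group. At this depth, Ckmt1 in every bin and Ckm in the lowest bins stay near a few counts.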
